A study of Leucoraja erinaceus with 4 samples.

Results

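The 165 assembled genes described here were abundant in the ampullary receptor cells of the little skate (Leucoraja erinacea) and far lower in its ampullary canals, body skin and liver. They were chosen from 186064 assembled genes by their reads. Each had at least 1000 reads in the receptor-cell library, and its counts per 1000000 reads (CPM) plus 0.5 were at least 16 times those of each of the other 3 libraries. All 4 samples came from 1 adult animal of unstated sex, untreated as far as the labels say. They were the receptor cells (the electroreceptor cells), the canals that lead to them, skin that carries no electroreceptors, and liver. There was 1 stranded, poly(A)-selected library per tissue, so no difference below has a replicate check and no p-value was computed. In such bulk samples, fewer cells of a type and less RNA per cell cannot be told apart.

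Ampullary organs are jelly-filled canals that open at the skin and end in a bulb lined with electroreceptor cells. These cells turn weak voltage differences along the canal into calcium entry and transmitter release onto sensory nerve fibres, and in skates a voltage-gated calcium channel and a calcium-activated potassium channel are known to shape that response. The series measured gene expression in these tissues to study electroreception at the molecular level. The deposited identifiers are assembly numbers, however. They come without gene names, and 0 of the 165 matched the reference gene table. Neither the roles of these assembled genes nor the cell types in the receptor-cell sample could be checked, and no sequence is printed. Reads assigned to assembled genes were similar in number in receptor cells (12240037), canals (12303108), skin (11716890) and liver (11071249). An assembled gene can be a fragment or a close copy of another, so 165 assembled genes are not 165 genes.

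The 165 assembled genes held 1062859 reads in receptor cells, against 13187 in canals, 6710 in skin and 4553 in liver. That was 8.68% of the receptor-cell library (exact binomial 95% interval 8.67 to 8.70), against 0.107% of the canal library (0.105 to 0.109). They took 0.0573% of the skin library (0.0559 to 0.0587) and 0.0411% of the liver library (0.0399 to 0.0423). These intervals, and those below, cover counting error only. Per assembled gene, the receptor-cell library had between 1022 and 124629 reads with a median of 2333. The medians elsewhere were 7 reads in canals, 4 in skin and 2 in liver, and the highest values were 3487, 1196 and 823, in that order. Since these reads chose the set, the gap is its definition and not a finding.

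**Figure D1:**
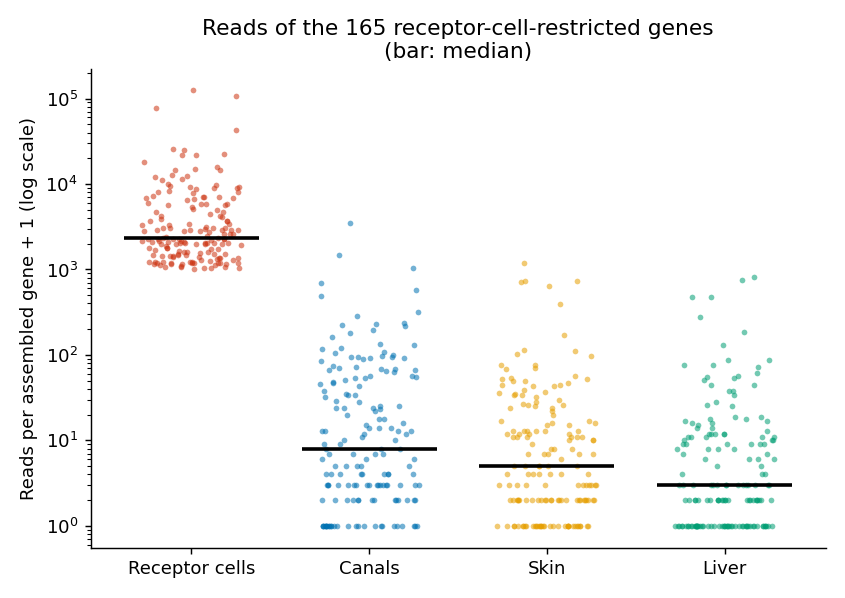
Reads of each of the 165 restricted assembled genes in the 4 libraries, as reads + 1 on a log scale; each point is 1 assembled gene and each black bar the median of the library. Receptor cells lie between 1022 and 124629 reads, while the medians of canals, skin and liver are 7, 4 and 2 reads.

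A few assembled genes dominated the set. The 10 with the most reads took 45.81% of its receptor-cell reads, the 20 with the most 58.02% and the 50 with the most 77.88%. In the whole receptor-cell library, 19 of them stood among the 100 assembled genes with the most reads. By TPM (RSEM's transcript share per 1000000, which corrects for length), 8 stood among the first 100.

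The highest level per length belonged to c131483_g1, a 729-base assembled gene with 1 transcript. It had 19598.91 TPM in receptor cells, against 4.45 in canals, 1.32 in skin and 2.11 in liver, and was first of all assembled genes in the receptor-cell library by TPM. Its reads numbered 107200 in receptor cells, against 27 in canals, 7 in skin and 10 in liver. Receptor cells therefore stood far above all 3 other tissues. Relative to library totals, receptor cells were 3991-fold above canals (95% interval 2743 to 6056), 14660-fold above skin (7115 to 36463) and 9696-fold above liver (5272 to 20221).

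The next by TPM, c76333_g1 (1638 bases, 1 transcript), had the most reads of the set and stood at rank 5 in the library by TPM. It had 8190.67 TPM in receptor cells, against 209.33 in canals, 0.80 in skin and 0.91 in liver. Its reads were 124629 in receptor cells, against 3487 in canals, 12 in skin and 12 in liver. Unlike c131483_g1, it was clearly present in the canals, at 2.798% of its receptor-cell reads. The ratio of receptor cells to canals was 35.93 (34.74 to 37.17), and those to skin and liver were 9942 (5691 to 19241) and 9394 (5378 to 18181).

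The other 8 of the first 10 by receptor-cell reads differed in where else their reads were found. The third (7258 bases) had 77303 reads in receptor cells, against 1041 in canals, 724 in skin and 10 in liver, so that liver was lowest. The fourth (6239 bases, 5 transcripts) had 43338 reads, against 1457, 1196 and 823 in the same order. The fifth (6646 bases) had 25347 reads, against 318, 728 and 756. The fourth and the fifth were thus found in every tissue, with receptor cells 29.78-fold and 30.11-fold above the nearest of them on the CPM + 0.5 scale.

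The sixth (3998 bases) and the ninth (2209 bases) were nearly free of reads elsewhere. The sixth had 24770 reads in receptor cells, against 9 in canals, 6 in skin and 2 in liver. For the ninth these numbers were 21776, against 4, 4 and 5. The seventh (3111 bases, 4 transcripts) came close, with 22533 reads in receptor cells, against 52 in canals, 10 in skin and 7 in liver. In the eighth (1251 bases, 3 transcripts) there were 21954 reads in receptor cells, against 6 in canals, 23 in skin and 470 in liver, which was the highest of the others. The tenth (4002 bases) had 18047 reads in receptor cells, against 285 in canals, 0 in skin and 6 in liver, and canals were the highest of the others.

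The fold over the nearest other library, on the CPM + 0.5 scale, ran from 16.07 to 3250 with a median of 114.5. It lay between 16 and 32 for 39 assembled genes, between 32 and 100 for another 39, between 100 and 1000 for 79, and at 1000 or more for 8. Among the 36326 assembled genes with at least 10 reads in 1 library, 1.41% were 16-fold or more above each other library, 0.278% were 100-fold or more and 0.0220% were 1000-fold or more. The single comparisons reached 16-fold in 2.53% of them against canals, 2.87% against skin and 4.65% against liver. All 165 passed the 16-fold limits by rule, and the 8 at 1000-fold or more among the 36326 are the 8 of the set. With 0.5 CPM added, assembled genes with few receptor-cell reads cannot reach the higher folds. These shares are therefore no independent background for the set. The added 0.5 CPM also limits the fold of the rarer ones of the 165: the 6 with no read elsewhere had 1045 to 1729 receptor-cell reads. The scaling matters too. With library sizes scaled by TMM (trimmed mean of M-values), ratios of reads relative to library size over canals, skin and liver become 0.6844, 0.7526 and 0.4094 times as large. Where reads elsewhere are few, folds with 0.5 CPM added do not follow these factors. For c93676_g1 (described below), with 0 reads in skin and liver, the log2 difference fell from 9.44 to 8.88 against both. That was a larger change than the skin factor gives and a smaller one than the liver factor gives.

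Both limits of the rule cut through a continuous range. The assembled genes just inside the fold limit stood 16.07-, 16.53- and 17.25-fold above the nearest library, and those just outside it 15.10-, 15.09- and 14.79-fold. Just inside the read limit were assembled genes with 1022, 1045 and 1051 receptor-cell reads, and just outside it, at 16-fold or more, were others with 999, 994 and 982. For 4 of the 165, the counting interval of the ratio to at least 1 other library reached below 16. Of the 2268 assembled genes with at least 1000 receptor-cell reads, 7.28% were restricted in this way. The share was 4.48% of those with 1000 to 2000 reads, 8.87% with 2000 to 5000, 16.6% with 5000 to 10000 and 17.9% with 10000 or more.

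**Figure D2:**
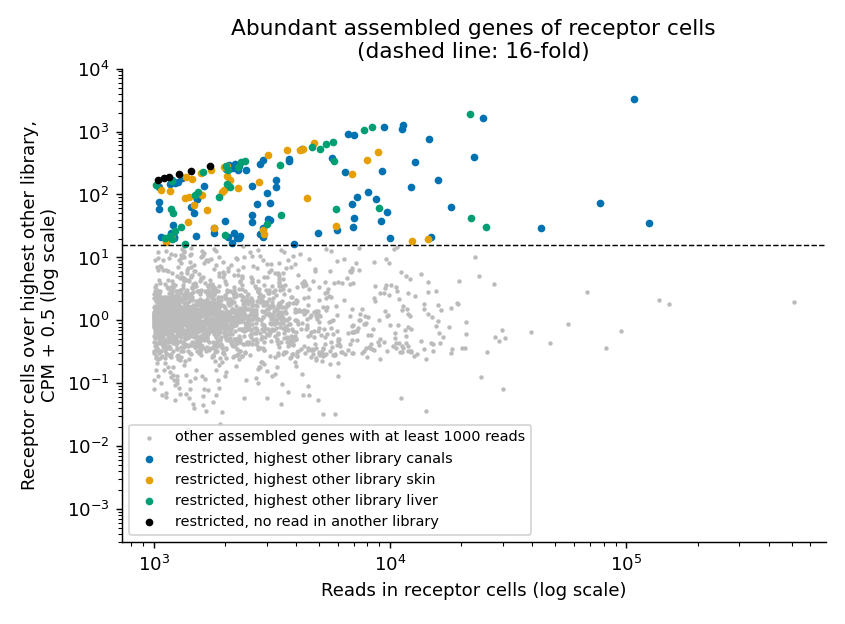
Receptor-cell reads (log scale) against the fold of receptor cells over the highest other library on the CPM + 0.5 scale (log scale), for 2268 assembled genes with at least 1000 receptor-cell reads; the 165 restricted ones are coloured by the library that came nearest (black: no read in any other). They run from 16.07-fold to 3250-fold, and the slanted upper edge is set by the added 0.5 CPM.

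The 2 with the largest canal share of their reads were the least restricted against canals. In c93458_g1 (2623 bases, 2 transcripts) there were 3910 reads in receptor cells, against 232 in canals, 101 in skin and 9 in liver. Its canal reads were 5.934% of its receptor-cell reads. In c91401_g2 (3789 bases, 3 transcripts) there were 2142 reads in receptor cells, against 119 in canals, 46 in skin and 8 in liver, a canal share of 5.556%. The steps from tissue to tissue followed the same order in both, with canals nearest and liver farthest. Receptor cells exceeded canals 16.94-fold (14.84 to 19.42) for c93458_g1 and 18.09-fold (15.04 to 21.95) for c91401_g2, so that both intervals reached below the 16-fold limit. With TMM scaling both fell below it, at log2 differences from canals of 3.50 and 3.56.

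The 2 longest differed in their canal reads. The longest, c94751_g1 (11576 bases, 3 transcripts), had 1200 reads in receptor cells, against 31 in canals, 2 in skin and 2 in liver. Its 9.85 TPM in receptor cells was the lowest of the set. The ratio to canals was 38.91 (27.26 to 57.53). With 0.5 added, it was 32.63 by CPM and 9.495 by TPM. The value by TPM was below the 16-fold limit and the lowest of the set. With nothing added, the difference by TPM was already smaller than by reads, at 9.85 in receptor cells against 0.59 in canals. The added 0.5, close to the canal level, lowered it further. The second longest, c93676_g1 (9262 bases, 1 transcript), had 4245 reads and 43.78 TPM in receptor cells, with 2 reads in canals and 0 in skin and liver. Receptor cells were 2133-fold above canals, with a wide interval of 590.2 to 17622 because only 2 canal reads carry it. Allowing up to 3 reads where none was found, receptor cells were at least 1355-fold above skin and at least 1280-fold above liver.

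Outside receptor cells, the reads lay on few of the 165. In canals, 27 had no read, 87 had fewer than 10 and 21 had 100 or more. In skin, 35 had no read, 100 had fewer than 10 and 10 had 100 or more, and in liver these numbers were 54, 118 and 7. Fewer than 10 reads in each of the 3 libraries were found for 70, and no read in any of them for 6. A count of 0 allows up to 3 reads, which is 0.2438 CPM for canals, 0.256 for skin and 0.271 for liver. At the other end, 5 had 100 or more reads in each of the 3. The 10 with the most reads in a library took 66.72% of the set's canal reads, 72.52% of its skin reads and 73.97% of its liver reads.

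The reads elsewhere were no fixed share of those in receptor cells. Across the 20 most abundant of the set, all with over 10000 receptor-cell reads, the canal reads ran from 0.01837% to 4.826% of the receptor-cell reads, with a median of 0.5326%. Skin ran from 0% to 5.118% and liver from 0% to 3.31%. In 4 of these 20 each of the other libraries had fewer than 10 reads. Across all 165, Spearman's rho of the reads was 0.3867 between receptor cells and canals, 0.2394 with skin and 0.2598 with liver. Between the other libraries it was higher, at 0.6587 for canals and skin, 0.572 for canals and liver, and 0.6046 for skin and liver. These coefficients are descriptions over assembled genes of 1 animal, which share length and the rule that bounds them.

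The highest of the 3 other libraries was the canal library for 85 of the 165 (51.5%), skin for 37 (22.4%) and liver for 37 (22.4%), and the other 6 had no read in any of them. Among the other 2103 assembled genes with at least 1000 receptor-cell reads, it was canals for 44.0%, skin for 47.8% and liver for 8.18%. The rule did not use this order, and for the 70 with fewer than 10 reads in each library it can rest on a single read. Where reads were equal, the library with the lower total counted as the highest, which favours liver. The order was not repeated with TMM scaling. In 16 of the 165 (9.70%), canals stood at least 4-fold above both skin and liver on the CPM + 0.5 scale. Among the 2103 the share was 8.18%, and among the 36326 with at least 10 reads in 1 library 6.89%. Skin led in this way in 4 (2.42%, against 5.52% of the 2103) and liver in 4 (2.42%, against 1.85%). The set's share with a leading canal library was thus near the background. The shares are not alike, however. In canals 87 of the 165 had fewer than 10 reads, too few to lead 4-fold once 0.5 CPM is added. The comparison therefore cannot show whether the set leans towards canals more than other assembled genes do.

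The 16 that canals led carried 5290 of the 13187 canal reads of the set (40.1%). Most of these were of c76333_g1, and without it the other 15 carried 1803 of 9700 (18.6%). Their canal reads ran from 31 to 3487 with a median of 99.5, and their receptor-cell reads from 1184 to 124629. They included c76333_g1, c94751_g1 and the tenth most abundant of the set. The skin-led ones included the sixteenth by reads (5828 bases), with 12330 reads in receptor cells, against 62 in canals, 631 in skin and 15 in liver.

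**Figure D3:**
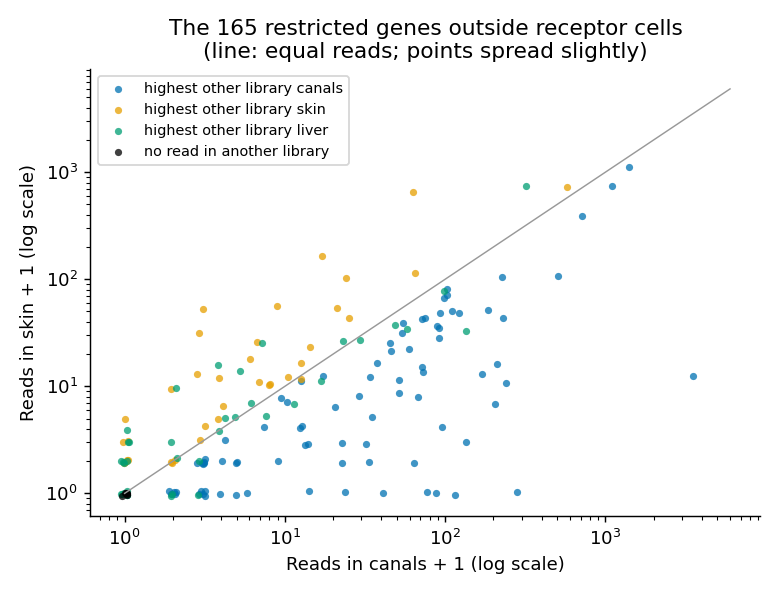
Reads in canals + 1 against reads in skin + 1 for the 165 restricted assembled genes, both on log scales, coloured by the library nearest to receptor cells (black: no read in any other); points are spread slightly so that equal values can be seen. Most points lie at few reads in both tissues, and the point far to the lower right is c76333_g1, with 3487 canal reads and 12 skin reads.

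Length was not used by the rule. The 165 had a median length of 2545 bases, from 369.9 to 11576, with quartiles of 1356 and 3793. The other 2103 assembled genes with at least 1000 receptor-cell reads had a median of 2907 bases and quartiles of 1882 and 4475. All 186064 assembled genes had a median of 309 bases. Assembled genes under 1000 bases made up 26 of the 165 (15.8%, against 8.65% of the 2103), and those of 5000 bases or more 17 (10.3%, against 19.8%). The set was thus somewhat shorter than other abundant transcripts, and 2 or more transcripts were assembled for 79 of the 165 (47.9%), close to the 49.0% of the 2103.

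The short ones supplied much of the level per length. By TPM, the 165 made up 6.857% of the receptor-cell library, against 0.05694% of canals, 0.01996% of skin and 0.03335% of liver. Their median was 136.1 TPM in receptor cells, against 0.4 in canals, 0.2 in skin and 0.14 in liver. Those under 1000 bases, 26 in number, held 15.26% of the set's reads in receptor cells but 45.18% of its TPM, most of it from c131483_g1. The 17 of 5000 bases or more held 20.74% of the reads and 4.723% of the TPM. A rule set on reads admits long transcripts at lower levels per length than short ones, so these shares describe the set as chosen.

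**Figure D4:**
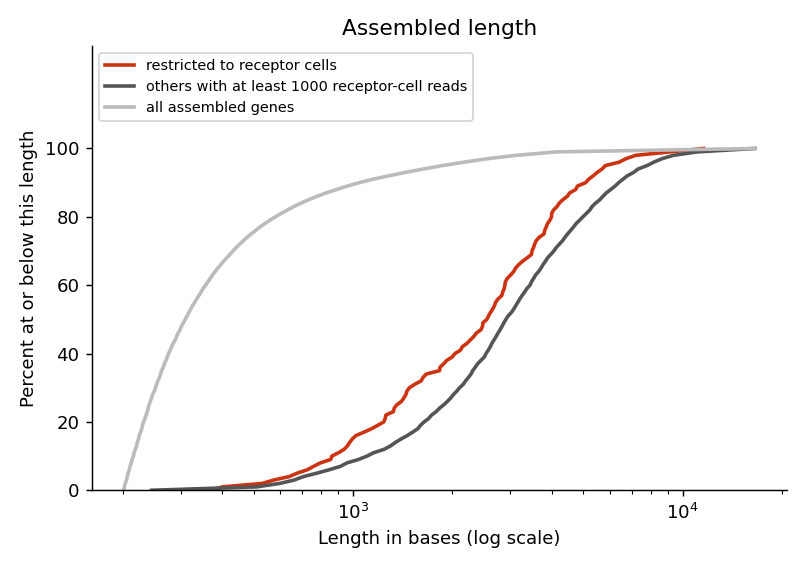
Percent of assembled genes at or below a given length (bases, log scale) for the 165 restricted to receptor cells, the other 2103 with at least 1000 receptor-cell reads, and all 186064. The medians are 2545, 2907 and 309 bases.

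For assembled genes with several transcripts, the deposited length is weighted by RSEM's estimate of the transcripts in use. A difference in length between libraries is thus a difference in that estimate. Whether reads were placed on the right transcripts was not tested. Only a few of the set had enough reads elsewhere to be compared. Those with fewer than 100 reads in the other library were left out, and some of them differed less by TPM than by reads. The 41st by reads (3 transcripts), for example, had 93 canal reads. It was 63.87-fold above canals by reads, with 153.20 TPM in receptor cells against 13.82 in canals. How many did so was not counted. With at least 100 reads in the other library, none of 11 differed by 1.5-fold or more between receptor cells and canals, with a median absolute log2 difference of 0.013, against 0.022 for the other abundant assembled genes. Of 994 other abundant ones, 12 were longer and 8 shorter by that much in receptor cells than in canals. Against skin 1 of 6 differed, where 10 of 957 others were longer and 6 shorter. Against liver 1 of 4 differed, where 12 of 892 others were longer and 7 shorter.

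Both were longer in receptor cells. The eighth by reads was 1251 bases long in receptor cells and 498 bases in liver, a ratio of 2.512. Its level was 1983.81 TPM in receptor cells and 182.41 TPM in liver, a 10.88-fold difference, where the reads alone gave 42.25-fold. The sixteenth by reads was 5828 bases long in receptor cells and 3445 in skin, a ratio of 1.692. Its level was 205.00 TPM in receptor cells and 18.55 TPM in skin, an 11.05-fold difference, where the reads gave 18.71-fold. For both, the tissue difference was therefore smaller by TPM than by reads. In all, 10 of the 165 were less than 16-fold above the nearest library by TPM + 0.5, at 9.495- to 15.96-fold.

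The 165 came from 160 assembly clusters, that is, groups of identifiers with the same text before "_g". In 5 clusters there were 2 restricted assembled genes each. Of the largest pair by reads, 1 had 16006 reads in receptor cells, against 90 in canals, 34 in skin and 10 in liver, and the other 2923, against 66, 113 and 5. Another pair was almost absent elsewhere in both members, with 8373 reads in receptor cells, against 0 in canals, 1 in skin and 1 in liver for the first, and 2333, against 0, 0 and 1, for the second. A further pair had 7766 and 5732 receptor-cell reads, with at most 2 reads in any other library. Whether the members of a pair are pieces of 1 transcript or separate genes cannot be told from the files.

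Fewer of the restricted assembled genes than of the other abundant ones stood alone in their cluster. Alone were 90 of the 165 (54.5%), against 74.0% of the other 2103. Their clusters held 208 further assembled genes, of which 119 in 63 clusters had at least 10 receptor-cell reads. Of these 119 mates, 18 (15.1%) were at least 4-fold and 7 (5.88%) at least 16-fold above each other library. Of all 28225 assembled genes with at least 10 receptor-cell reads, 8.44% and 1.82% were so. The mates had been left out of the set by the same thresholds, which lowers these shares.

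Most mates were not restricted, as was true of most assembled genes with at least 10 receptor-cell reads. For 58 of the 119 (48.7%), the highest other library was above receptor cells, against 43.8% of all 28225. The mate with the most receptor-cell reads belonged to the cluster of c93458_g1, with 10705 reads in receptor cells, against 722 in canals, 596 in skin and 23 in liver. It missed the limit narrowly, at 14.79-fold. In total the 208 mates had 63406 reads in receptor cells, against 37498 in canals, 58298 in skin and 40263 in liver. When reads were summed over each cluster before the rule was applied, 123 clusters were restricted, 121 of them among the 160.

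Below the limit of 1000 reads, 339 more assembled genes with at least 100 but under 1000 receptor-cell reads met the fold limit, which was 3.38% of 10034. They held 1.04% of the receptor-cell reads, against 0.0110% of those in canals, 0.00673% in skin and 0.00499% in liver. No read was found elsewhere for 99 of them. They were shorter, with a median of 1422 bases, and 49.0% had 2 or more transcripts.

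The same rule was applied to each of the other tissues to place the receptor-cell set. It found 165 assembled genes restricted to receptor cells, 48 to canals, 142 to skin and 217 to liver. These were 7.28% of the assembled genes that reached 1000 reads in receptor cells, and 2.77%, 7.31% and 22.0% of those of canals, skin and liver. They held 8.68% of the receptor-cell reads, 7.98% of the canal reads, 13.9% of the skin reads and 49.9% of the liver reads. The receptor-cell set was thus more than 3 times as large as the canal set but held a similar share of its library. The 10 most abundant took 45.81% of the reads of the receptor-cell set, 89.22% of those of the canal set, 58.13% for skin and 49.19% for liver. These shares depend on set size, since 10 is a larger part of the 48 of canals than of the other sets.

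The median fold over the nearest library was 114.5 for the receptor-cell set, 27.99 for the canal set, 57.12 for the skin set and 325.8 for the liver set. At least 1000-fold was reached by 8, 0, 10 and 53 of them, in that order. The sets differed in median reads in their own library, at 2333, 2220, 2548 and 5408 in the same order. With 0.5 CPM added, more reads allow a higher fold, so the folds of the sets are not fully comparable. They too rest on library totals. For the receptor-cell set the nearest library was canals in 85 of 165. Receptor cells came nearest most often in each other set, in 37 of 48 for canals, 81 of 142 for skin and 75 of 217 for liver. For the liver set this lead was narrow, with canals nearest in 72 and skin in 55. The order rests on library totals and was not repeated with TMM scaling. The receptor-cell set had the longest median, 2545 bases, against 1578 in canals, 1929 in skin and 1852 in liver. It also had the largest share with 2 or more transcripts, at 47.9%, against 33.3% in canals, 31.7% in skin and 33.6% in liver. Other assembled genes with at least 1000 reads also had their highest values in receptor cells, with 49.0% against 42.3%, 42.6% and 36.8%, and medians of 2907 bases against 2504, 2665 and 2295, in the same order of tissues. With 1 library per tissue, none of these differences between sets could be tested.

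**Figure D5:**
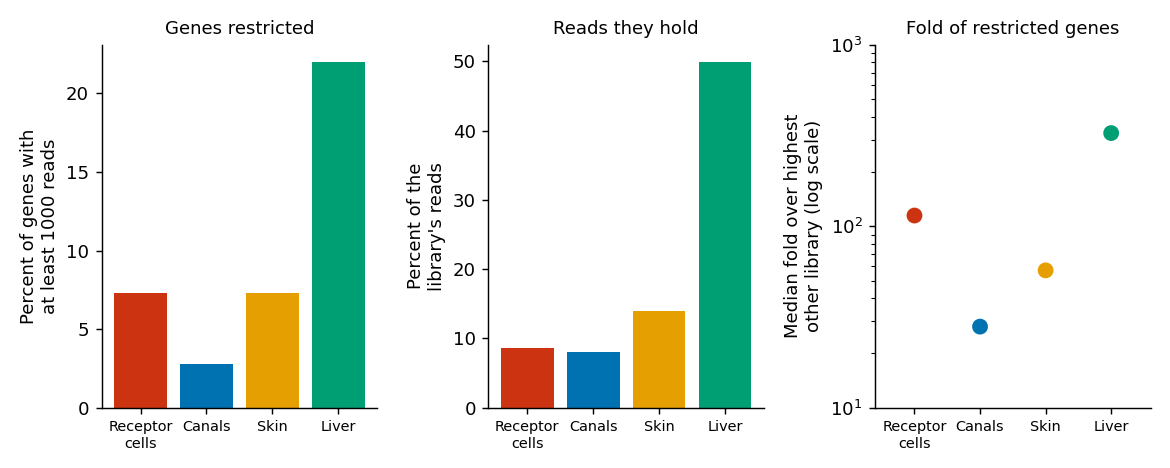
The same rule applied in each tissue: percent of assembled genes with at least 1000 reads that are restricted (left), percent of the library's reads they hold (middle) and their median fold over the highest other library on a log scale (right), 1 library each. Receptor cells have 7.28%, 8.68% and 114.5-fold, between canals and liver in all 3 panels.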

How the data were processed

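RNA of 4 tissues of 1 skate was sequenced, 1 library each. The authors estimated expression with RSEM 1.1.17 per gene of an assembled transcriptome, per the submitters' processing notes. Which assembler and aligner they used was not given in the sources used here. As deposited, expected counts are estimated reads without normalization, per the file headers. TPM and FPKM, as deposited, are adjusted for length and depth; FPKM was not used.

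Expected counts were rounded. CPM used library totals, and a pseudocount of 0.5 was added. Ratios of reads relative to totals carry exact Clopper-Pearson 95% intervals, and 0 reads were taken to allow 3. The rule was run on simulated data with differences planted well away from its limits, as a check of the code only. Alternative scalings came from edgeR 4.0.16 and DESeq2 1.42.0 in R 4.3.3. Identifiers, having no gene names, were printed for the 2 highest by TPM, the 2 with the largest canal share and the 2 longest; others were named by rank. The restricted set and all choices were made with earlier results of these data known.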

Additional observations from a re-analysis of the deposited data

How the results depend on the processing

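No paired analysis was possible because no tissue has replicates, and none could be left out. The count of 165 became 255 with a minimum of 500 reads and 105 with 2000, and lay between 123 and 229 under the other 10 alternatives. The share of receptor-cell reads, 8.68%, became 7.72% with TMM, 7.64% with DESeq2 size factors, 8.63% without 50 dominant assembled genes in the totals and 8.17% with TPM. It was 8.57% with a pseudocount of 2, 9.21% and 8.0% with minimums of 500 and 2000 reads, 10.4% and 7.06% with 8- and 32-fold limits, and 7.82% with cluster sums. With minimums of 500 and 2000 reads, 21 and 0 had no read elsewhere, where 6 were reported, and 121 and 43 had 2 or more transcripts, where 79 were reported. A lower limit of reads or fold can only add assembled genes to the set, and a higher one can only remove them. Why the other alternatives moved these values was not tested. TMM kept 138 of the 165, DESeq2 size factors 134 and a pseudocount of 2 kept 156, and none of these alternatives added any other assembled gene. For the named assembled genes, 18 log2 differences kept their direction in all 108 cases, and 44 moved by more than 1.5-fold. In 70 cases the value lay outside the counting interval, among them all 18 with TMM and all 18 with DESeq2 size factors. That interval belongs to the ratio of reads with no pseudocount added, and some reported values already lay below it. For c93676_g1, for example, receptor cells were 524.2-fold above canals with the reported pseudocount, against a lower end of 590.2. How many of the 70 were moved out of the interval by an alternative was not counted. The rule had already required at least 16-fold over each other library, so the kept direction is no check. An alternative added after seeing the data gave 14 assembled genes led by canals with TMM and 14 with DESeq2 scaling, where 16 were reported. At this depth, nothing can be said of transcripts below 3 reads in a library.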
